A study of Mus musculus with 32 samples.

Results

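The effect of A20 loss was compared between 2 populations of adipose tissue macrophages, by asking for each gene whether the difference between knockout and wild type depended on the population. All 16 libraries of mice on standard diet (SD) entered, of 32 in the series, and the other 16 came from mice on high-fat diet (HFD). RNA was sequenced in bulk from macrophages sorted by flow cytometry from epididymal fat of C57BL/6J mice after 12 weeks on the diet. CD11c+ cells were CD206 low and CD11c high (M1 in the submitters' sample names), and CD206+ cells were CD206 high and CD11c low (M2). KO mice lack A20 in myeloid cells and WT mice are wild type, so the 4 groups on SD were KO CD11c+, WT CD11c+, KO CD206+ and WT CD206+, with 4 libraries each. All were of the C57BL/6J strain. The labels used here name neither the driver of the deletion nor the age of the mice, and leave unsaid whether each of the 4 libraries of a group is a mouse of its own. What the p-values measure is therefore the scatter among these libraries, part of which may be technical. A CD11c+ and a CD206+ library of the same genotype and replicate number were taken as a pair, which gave 4 pairs per genotype.

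A20, encoded by Tnfaip3, edits ubiquitin chains on signalling proteins downstream of tumour necrosis factor, interleukin-1 and Toll-like receptors, and so limits NF-kB activity. Its own transcription is driven by NF-kB, which makes it part of a negative feedback loop together with the IkB proteins, Tnip proteins and the deubiquitinase Cyld. In fat tissue, CD206+ macrophages are known as the resident, scavenging population, while CD11c+ macrophages are known for inflammatory and lipid-handling programmes.

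Reads counted on genes numbered 17619638 to 23832924 per library, with 14314 to 15656 genes detected. The first principal component (53.8% of the variance) separated the populations and the next (22.1%) the genotypes. KO CD206+ library 4 stood nearer to the CD11c+ libraries on the first component than the other 3 KO CD206+ libraries (33.5 against 51.6 to 58), with Itgax at 8.32 CPM (counts per 1000000 on genes, TMM-scaled) against 2.56 to 4.59 CPM. WT CD11c+ library 4 lay apart on the third component (41.6, against -15.2 to -11.5 in the other 3). Of the macrophage markers, Csf1r averaged 1755 to 4324 CPM and Adgre1 (F4/80) 558 to 1655 CPM over the 4 groups, the lowest and the highest group mean. On the macrophage identity list, the interaction defined below called 4 of 13 genes higher and 5 lower (30.8% and 38.5%). Without the pairs it called 2 and 2. The list summed to 33776 to 37660 CPM in WT and 21139 to 24073 CPM in KO CD11c+ libraries. In CD206+ libraries it summed to 19558.5 to 24425 CPM in WT and 19323 to 23185 CPM in KO. Such sums follow the most abundant members. Over the 13 genes the median KO minus WT was 0.18 in CD11c+ and 0.53 in CD206+ cells (log2). Over all tested genes these medians were -0.04 and -0.01.

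The interaction is given on the log2 scale as KO minus WT in CD11c+ cells minus KO minus WT in CD206+ cells. A positive value (called higher) means that the KO difference was more positive in CD11c+ than in CD206+ cells, and a negative one (called lower) the reverse. Of 13062 genes tested, 1480 passed an adjusted p of 0.05 (11.3%; edgeR quasi-likelihood test with pairs as blocks, Benjamini-Hochberg adjustment), 683 higher (5.23%) and 797 lower (6.1%). The median over all genes was -0.04, and 3409 genes had an unadjusted p under 0.05. At least 2-fold in size were 473 of the called genes, 333 higher and 140 lower. The count depended on the pairing and on single pairs: without the block 760 genes passed, 382 higher and 378 lower, of which 754 were called in the same direction with it. Leaving out KO pair 3 gave 908 (358 lower), WT pair 3 gave 958 (499 lower), and the pairs of the libraries that stood apart, KO 4 and WT 4, gave 1246 and 1407. Under upper-quartile scaling, which moved the median of all genes to 0.06, 894 were higher and 467 lower (65.7% higher, against 46.1% in the fit as made).

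KO against WT alone called 3371 genes in CD11c+ cells (25.8%) and 3046 in CD206+ cells (23.3%), in a fit of the same libraries without pairs. By direction, 1466 rose and 1905 fell in CD11c+ cells, and 1554 rose and 1492 fell in CD206+ cells. These calls sort the interaction genes by where they changed. Among the 683 higher genes, 265 rose in CD11c+ cells with no call in CD206+ cells, 164 fell in CD206+ cells with no call in CD11c+ cells, 123 rose in both, 30 fell in both, 24 rose in CD11c+ and fell in CD206+ cells, and 77 had no call in either. Among the 797 lower genes, 318 fell in CD11c+ cells with no call in CD206+ cells, 226 rose in CD206+ cells with no call in CD11c+ cells, 56 rose in both, 46 fell in both, 39 fell in CD11c+ and rose in CD206+ cells, and 112 had no call in either. Genes of opposite direction therefore made up a small share of each side (3.51% and 4.89%). Interaction and single-population calls rest on the same libraries, so the sorting is a description.

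**Figure D1:**
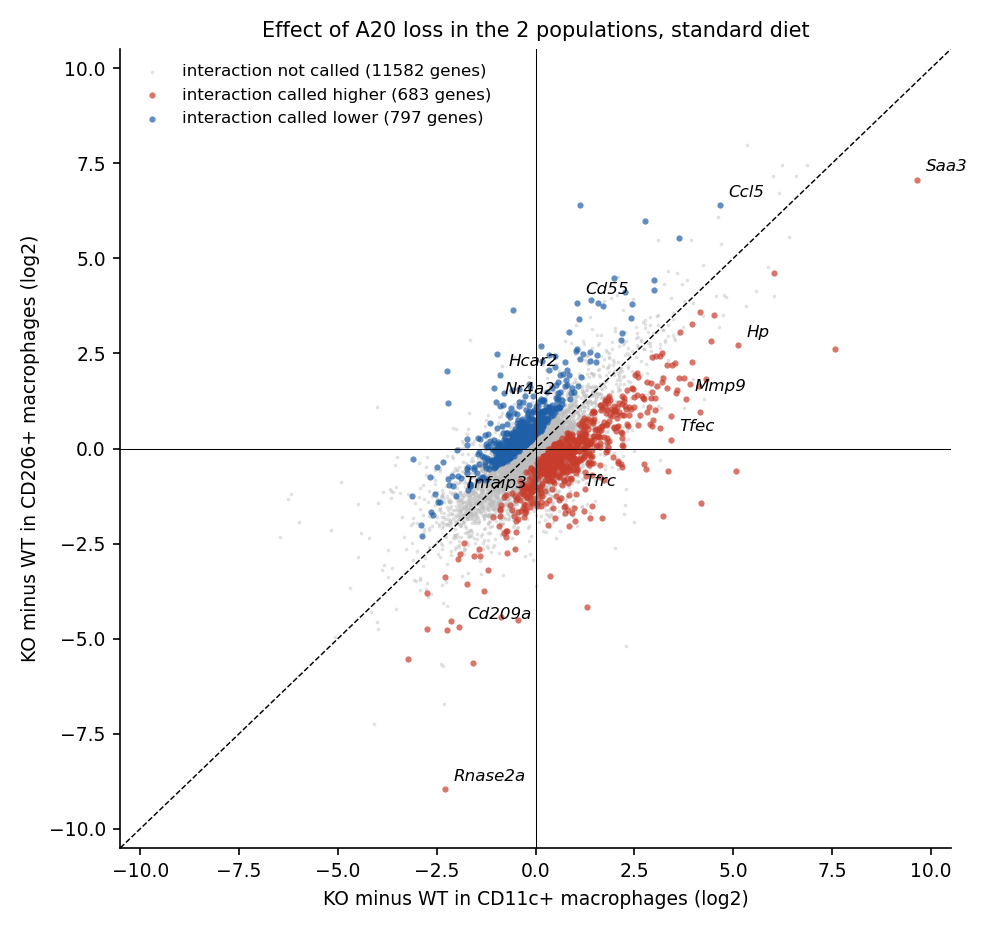
Each point is 1 of the 13062 tested genes, with the KO minus WT log2 difference in CD11c+ macrophages on the horizontal and in CD206+ macrophages on the vertical axis, standard diet. The 683 genes called higher lie below the dashed line of equal effects and the 797 called lower above it; Tfec and Mmp9 rose by more in CD11c+ cells, and Hcar2 and Nr4a2 lie in the quadrant of opposite directions.

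Tnfaip3 (chromosome 10, 19000910 to 19015657 of GRCm38, the build of all positions given, minus strand) checks the labels. It stood at 1352, 1429.5, 1628 and 1394 CPM in WT CD11c+ libraries 1 to 4 and at 239, 464, 431 and 314 CPM in KO CD11c+ libraries. In CD206+ cells the WT libraries held 648, 655, 729.7 and 479.9 CPM and the KO libraries 244, 275, 315 and 216 CPM. No KO library reached a WT library in either population, and WT CD11c+ libraries carried the highest levels. KO minus WT was -2.0 ± 0.18 in CD11c+ and -1.26 ± 0.18 in CD206+ cells (log2 ± SE), and the interaction was -0.79 ± 0.16 (SE; adjusted p = 0.00649 by the edgeR quasi-likelihood test), a call that was lost without the block. Reads are summed over the whole gene, so the remaining level is no measure of deletion. Lyz2, the lysozyme gene of myeloid cells, fell in KO CD11c+ cells (-1.11 ± 0.13) and stood at -0.32 ± 0.13 in CD206+ cells (adjusted p = 0.0835 by the edgeR quasi-likelihood test), with an interaction of -0.80 ± 0.16 (SE; adjusted p = 0.00483 by the edgeR quasi-likelihood test). Of the genes behind the sort, Itgax, which encodes CD11c, had an interaction of -0.30 ± 0.40 (adjusted p = 0.69 by the same test), and Mrc1, which encodes CD206, one of 0.57 ± 0.17 (adjusted p = 0.0447), a call that was lost without the block and when any of 5 single pairs was left out.

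The smallest p-values among lower genes belonged to 5 genes of receptors, adhesion and signalling that were high in WT CD11c+ cells, low in WT CD206+ cells and closer together between the populations in KO. Hcar2 (chromosome 5, 123863570 to 123865499), the receptor for niacin and beta-hydroxybutyrate, stood at 113, 74.1, 80.4 and 149.9 CPM in WT CD11c+ and 22.6, 13.7, 10.3 and 19 CPM in WT CD206+ libraries. In KO it stood at 50.5, 61.2, 50.6 and 62.4 CPM in CD11c+ and 55.5, 60.9, 50.9 and 84.4 CPM in CD206+ libraries. All 4 KO CD11c+ libraries lay below all WT CD11c+ libraries, all 4 KO CD206+ libraries lay above all WT CD206+ libraries, and the 2 KO groups overlapped. The interaction was -2.81 ± 0.17 (SE; adjusted p = 1.76e-06 by the edgeR quasi-likelihood test), made of -0.89 ± 0.23 in CD11c+ and 1.94 ± 0.24 in CD206+ cells. Because RNA was taken in bulk, fewer cells of a type and less RNA per cell cannot be told apart here or in any result that follows.

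Nr4a2 (chromosome 2, 57106830 to 57124003), an orphan nuclear receptor induced early in macrophage activation, held 472, 423, 363 and 361 CPM in WT CD11c+ and 98.7, 59.3, 74.7 and 55.8 CPM in WT CD206+ libraries. The KO libraries held 205, 229.7, 191 and 184 CPM in CD11c+ and 192, 178, 163 and 135 CPM in CD206+ cells. It fell in KO CD11c+ and rose in KO CD206+ cells with no overlap in either, and the interaction was -2.23 ± 0.15 (SE; adjusted p = 2.96e-06 by the edgeR quasi-likelihood test). Its relatives Nr4a1 (-1.13 ± 0.18) and Nr4a3 (-1.67 ± 0.24) were also called lower (edgeR quasi-likelihood test, adjusted p = 0.00132 and adjusted p = 0.000626), with KO minus WT of -0.20 and 0.28 in CD206+ cells, neither of them called. Itgal (chromosome 7, 127296260 to 127335138), the alpha chain of the adhesion integrin LFA-1, differed in another way: it rose in both populations, by 1.09 ± 0.29 in CD11c+ and 3.41 ± 0.33 in CD206+ cells. Its levels were 7.21, 8.9, 6.54 and 10.6 CPM in WT CD206+ against 66.2, 57.4, 78.5 and 151 CPM in KO CD206+ libraries, and 41.5, 35.9, 34.5 and 68 against 74, 83.9, 78.2 and 147 CPM in CD11c+ libraries. Library 4 was the highest of each group. The WT gap between the populations (2.40) thereby shrank to 0.16 in KO, an interaction of -2.24 ± 0.17 (SE; adjusted p = 1.17e-05 by the edgeR quasi-likelihood test).

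Cd14, the co-receptor for lipopolysaccharide, was the most abundant of these 5. It held 2302, 1818, 1882 and 1720.5 CPM in WT CD11c+ and 1510, 1588, 1589 and 1232 CPM in KO CD11c+ libraries, against 1300.1, 1017, 1044 and 929 CPM in WT and 1753, 1844, 1801 and 1467 CPM in KO CD206+ libraries. WT cells had more Cd14 in the CD11c+ population in all 4 pairs and KO cells more in the CD206+ population in all 4 pairs. The interaction was -1.07 ± 0.10 (SE; adjusted p = 4.98e-05 by the edgeR quasi-likelihood test). Pde4b, a phosphodiesterase that degrades cyclic AMP, also fell in CD11c+ (-0.41) and rose in CD206+ cells (1.13). Its interaction was -1.57 ± 0.14 (SE, adjusted p = 4.97e-05 by the edgeR quasi-likelihood test). Unlike Cd14, it stayed higher in CD11c+ cells of KO mice, by 0.34 ± 0.10. Of the 6 genes named for falling in CD11c+ and rising in CD206+ cells, 4 stood beside Hcar2 and Nr4a2. They were the dicarboxylate transporter Slc13a3 (-1.93 ± 0.22), the integrin chain Itgb7 (-1.89 ± 0.20), the mTORC2-binding protein Prr5l (-1.52 ± 0.27) and the adaptor Samsn1 (-1.48 ± 0.19).

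**Figure D2:**
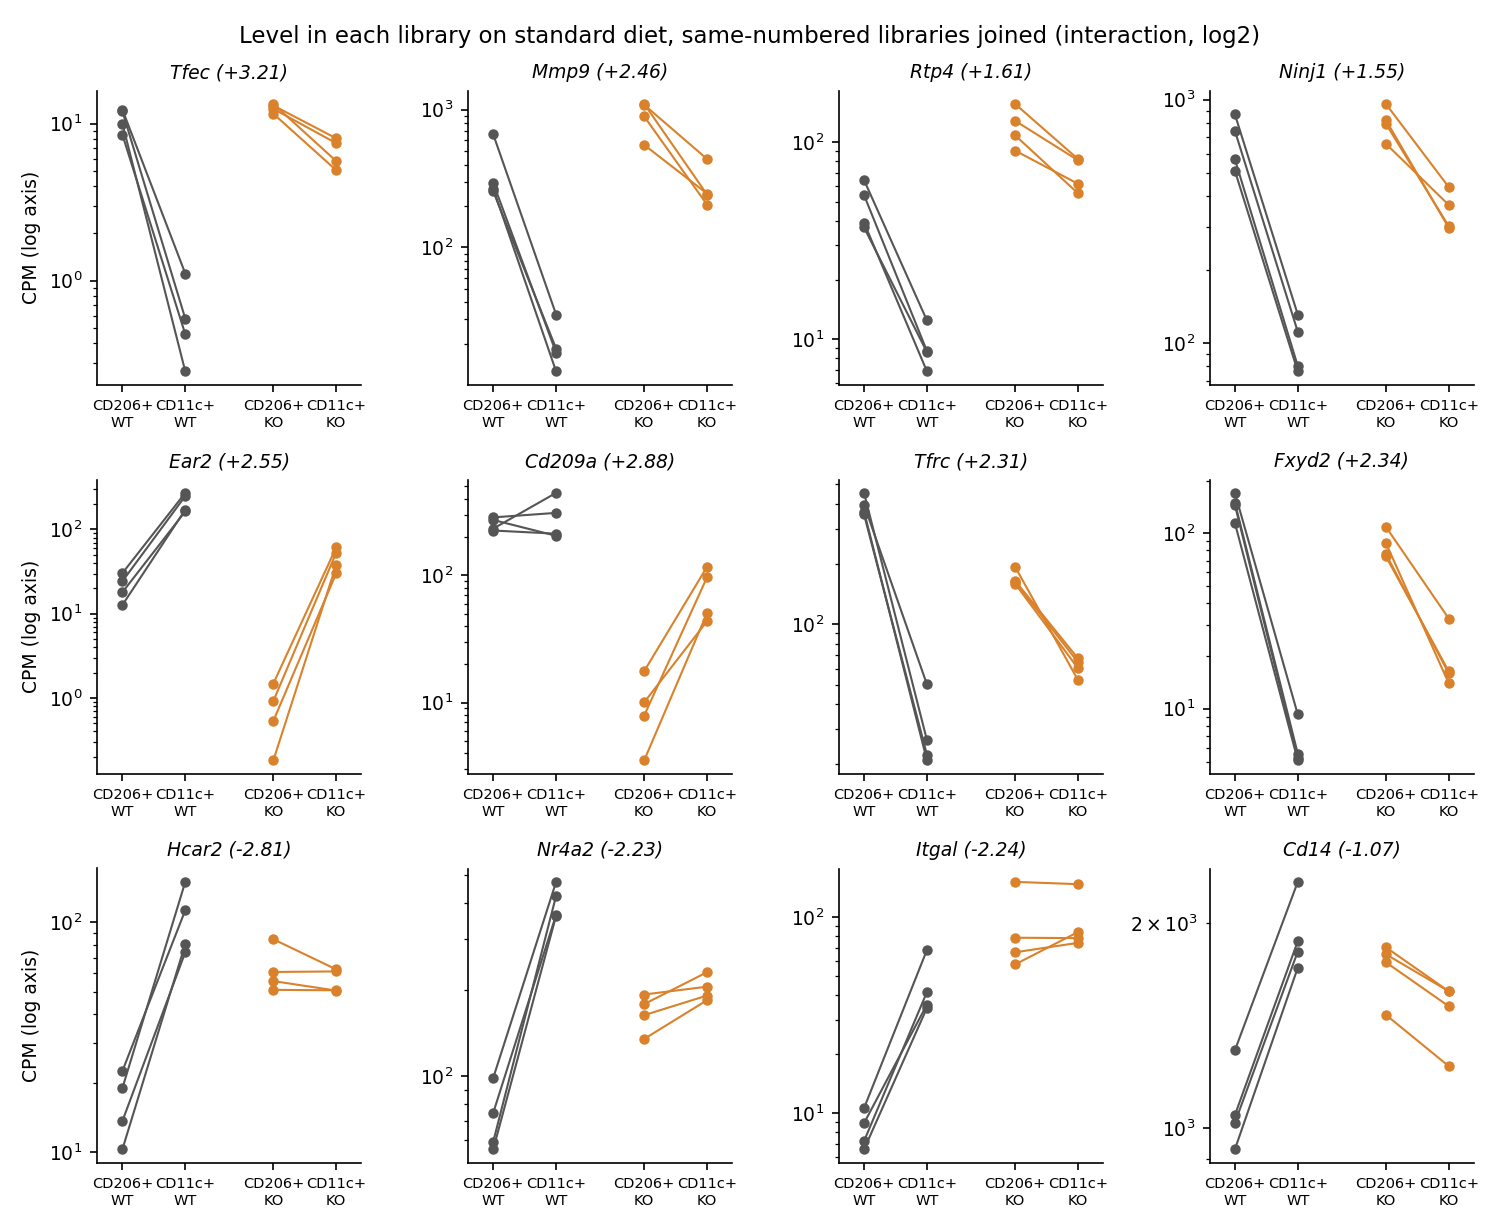
Level of 12 named genes in each of the 16 libraries (CPM, log axis), with same-numbered CD206+ and CD11c+ libraries joined by a line, WT in grey and KO in orange; the interaction stands in each title. Lines that are steep in WT are flatter in KO for Tfec, Mmp9, Rtp4, Ninj1, Tfrc, Fxyd2, Hcar2, Nr4a2 and Itgal, cross in sign for Cd14, and are steeper in KO for Cd209a and Ear2.

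Other large negative values came from genes that rose in KO CD206+ cells. The 12 most negative genes were named on the condition that KO and WT pairs did not overlap, so the lack of overlap is no separate result (18% of all tested genes met it). Cd55, which dissociates complement convertases, stood at 1.62 to 3.39 CPM in WT and 34.5 to 43.5 CPM in KO CD206+ libraries and under 4 CPM in every CD11c+ library (-2.77 ± 0.43). Klrk1, the activating receptor NKG2D, held 3.95 to 6.32 CPM in WT and 11.1 to 20.2 CPM in KO CD206+ libraries and stood at 81.3 to 110 in WT and 60.2 to 81.5 CPM in KO CD11c+ cells (-1.98 ± 0.19). The glucose transporter Slc2a6 rose in both, by 0.83 in CD11c+ and 3.06 in CD206+ cells (-2.09 ± 0.25). Also in this group were Klra2, a Ly49 receptor (-2.13 ± 0.31), and Gbp8, a guanylate-binding protein whose exons overlap Gbp4 and Gbp9 (-2.18 ± 0.39). By contrast Lilra6, an immunoglobulin-like receptor (-1.86 ± 0.18), and the lectin Siglecf, which also marks eosinophils (-1.98 ± 0.51), fell in CD11c+ cells with no call in CD206+ cells: 16.4 to 19.4 CPM of Siglecf in WT CD11c+ and 2.19 to 4.73 CPM in KO CD11c+ libraries, with under 1 CPM in CD206+ libraries. Siglecf lost its call without the block and without KO pair 2 or 3. Natural killer markers were at summed levels of 10.9 to 42.2 CPM in KO and 8.09 to 16 CPM in WT CD11c+ cells, and of 9.42 to 37.7 against 3.67 to 4.36 CPM in CD206+ cells, with 0 of 7 called by edgeR or DESeq2 (1 positive and 0 negative at an unadjusted p under 0.05). T cell markers summed to 91.9 to 137 CPM in KO and 186 to 239 CPM in WT CD11c+ cells, and to 113 to 189 against 36.1 to 55.3 CPM in CD206+ cells, with 0 of 17 called by edgeR, 1 in each direction by DESeq2 and a median of -1.06 (6 negative and 1 positive at an unadjusted p under 0.05; Cd3e -1.55 ± 0.50). A sum follows its most abundant members. Over the 17 T cell markers the median KO minus WT was 1.09 in CD11c+ and 2.21 in CD206+ cells (log2). The part of natural killer and T cells in these results was not tested.

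Of 24 subunits, inhibitors and adaptors of the NF-kB pathway, 3 had a positive interaction, against 45.9% of all tested genes. By the test 8 were called lower and 1 higher (33.3% and 4.17%, median -0.31). Without the block 5 were lower and 0 higher. Over all tested genes 6.1% were called lower and 5.23% higher, and each list count that follows stands beside these shares. Called lower were the adaptors Traf1 (-0.87 ± 0.21) and Ripk2 (-0.61 ± 0.16), the IkB-like proteins Bcl3 (-0.63 ± 0.15) and Nfkbie (-0.56 ± 0.16), the subunit Rel (-0.56 ± 0.13), Nfkbib (-0.55), the kinase Ikbkb (-0.51) and Map3k7 (-0.39). The kinase Ikbke was called higher (0.60 ± 0.17) and rose in both populations, by 2.95 and 2.42. In 15 alternative fits (no block, another scaling, filter or tool, or 1 pair left out) Ikbke kept its call in 6 and Ripk2 in 7, and both lost it without the block. Traf1 lost it without KO pair 1 or WT pair 3, and Bcl3 without KO pair 3. KO against WT in CD206+ cells called 14 of the 24 higher and 1 lower, and in CD11c+ cells 8 higher and 7 lower. Over all 13062 tested genes it called 1554 higher and 1492 lower in CD206+ cells, and 1466 higher and 1905 lower in CD11c+ cells. Nfkb1, Rela, Relb and Nfkb2 were not called by the interaction (-0.23, -0.25, -0.21 and -0.15).

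Of 19 A20 partners and ubiquitin editors, 5 were called lower and 0 higher by the edgeR quasi-likelihood test, as by DESeq2 (4 and 0 without the block; median -0.23; 0 positive at an unadjusted p under 0.05). The A20-binding protein Tnip3 had 317 CPM in WT and 198 CPM in KO CD11c+ cells, and 50.6 against 97.5 CPM in CD206+ cells (interaction -1.66 ± 0.22, adjusted p = 0.000423 by the edgeR quasi-likelihood test). Birc3, a ubiquitin ligase that A20 acts beside, rose in CD206+ cells by 1.01 ± 0.09 and stood at 0.25 ± 0.09 in CD11c+ cells, where it was not called, an interaction of -0.76 ± 0.11. Cyld (-0.63 ± 0.11), its adaptor Spata2 (-0.59 ± 0.16) and the ubiquitin ligase Itch (-0.42) were also lower, the first 2 with a rise in CD206+ cells and no call in CD11c+ cells. Spata2 kept its interaction call in 8 of the 15 alternative fits.

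Among cytokines, 4 of 20 were called lower and 0 higher by the edgeR quasi-likelihood test, as by DESeq2 (1 and 0 without the block; median -0.46; 0 positive at an unadjusted p under 0.05). Il1b (-1.35 ± 0.24; an antisense transcript overlaps its exons) averaged 1298 CPM in WT and 736 CPM in KO CD11c+ cells. In CD206+ cells it averaged 214 and 285 CPM, a difference that was not called. Il10, the anti-inflammatory cytokine, rose in both populations but by more in CD206+ cells (1.65 against 0.75; interaction -0.89 ± 0.16). Il18 (-0.63 ± 0.18) and Csf3 (-1.46 ± 0.38, with 1.45 to 4.21 CPM as group means) completed the 4. Il10, Il18 and Csf3 lost their calls without the block, and Il18 kept its call in 6 and Csf3 in 8 of the 15 alternative fits. Chemokines went both ways. The T cell attractant Ccl5 rose in both populations from low WT levels (5.41 and 1.55 CPM) and by more in CD206+ cells (-1.62 ± 0.32). The interferon-induced Cxcl10 rose in CD206+ cells by 2.61 and stood at 1.05 in CD11c+ cells without a call (-1.39 ± 0.18, a call that was lost without the block). The monocyte attractant Ccl12 (1.83 ± 0.37), the neutrophil attractant Cxcl3 (1.87 ± 0.39), the CXCR6 ligand Cxcl16 (0.87 ± 0.16) and platelet factor Pf4 (1.61 ± 0.17) were called higher. Ccl5, Ccl12 and Cxcl3 lost their calls under limma voom. Icam1, the ligand of LFA-1, fell in CD11c+ and rose in CD206+ cells (-0.51 and 0.51; interaction -1.01 ± 0.11), while the co-stimulatory receptor Cd40 rose in both and more in CD11c+ cells (2.71 and 1.33; 1.36 ± 0.15).

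Transcription factors of macrophage identity had 10 of 32 members called lower and 3 higher (7 and 2 without the block; median -0.22). Lower were Runx3 (-1.39 ± 0.24), Nr4a1, Id3 (-1.01), Cebpb (-0.85), Nfe2l2 (-0.79), Irf4 (-0.72), Batf (-0.68), Stat3 (-0.58), Id2 (-0.57) and Klf6 (-0.41). Higher were Maf, a factor of resident macrophages (1.64 ± 0.20), Irf8 (1.18 ± 0.26) and Tcf4 (0.75). Irf4 kept its call in 6 of the 15 alternative fits, and it and Irf8 lost it without the block. In the JAK-STAT list 7 of 26 were lower, among them Jak2 (-0.87 ± 0.17) and the feedback inhibitors Socs3 (-0.75 ± 0.18) and Cish (-1.11 ± 0.28), and 2 were higher (4 and 1 without the block). Cish lost its call without the block and without KO pair 1 or 4, and Socs3 without KO pair 1 or 2. Immediate early and stress genes, which respond to cell handling as well as to signals, had 10 of 31 members lower and 4 higher (5 and 2 without the block). Their summed level was 22854 to 28067 CPM in WT and 13467 to 18399 CPM in KO CD11c+ libraries, and 31680 to 39337 against 17500 to 34753 CPM in CD206+ libraries. Fos, Jun and Egr1 were not called (0.21, 0.51 and 0.52). The part of handling in the values of the Nr4a genes was not tested.

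On the higher side, the 5 smallest p-values belonged to Fxyd2, Fam213b, Ninj1, Rtp4 and Sesn1, which are described further on. WT cells held these genes mainly in the CD206+ population, and they rose in KO CD11c+ cells. Tfec and Mmp9, named for the size of their interaction, were alike in both respects. Tfec (chromosome 6, 16833373 to 16898441), a transcription factor of the MiT family, stood at 0.456, 1.11, 0.264 and 0.573 CPM in WT CD11c+ and 5.05, 5.77, 7.51 and 8.07 CPM in KO CD11c+ libraries. CD206+ libraries held 8.52, 12.3, 10.03 and 12 CPM in WT and 11.6, 13.4, 12.4 and 13.1 CPM in KO. Every KO CD11c+ library lay above every WT CD11c+ library and below every CD206+ library, while the CD206+ groups overlapped. The interaction was 3.21 ± 0.31 (SE; adjusted p = 4.98e-05 by the edgeR quasi-likelihood test). Mmp9 (chromosome 2, 164940780 to 164955850), the gelatinase, held 12.6, 18.4, 17.2 and 32.5 CPM in WT and 438, 204, 242 and 246 CPM in KO CD11c+ libraries, and 267, 256, 293 and 663 against 1086, 894, 1103 and 555 CPM in CD206+ libraries. It rose in both populations, by 3.81 ± 0.37 and 1.30 ± 0.33, with no overlap in CD11c+ cells and an overlap through WT library 4 in CD206+ cells. The interaction was 2.46 ± 0.23 (SE; adjusted p = 4.98e-05 by the edgeR quasi-likelihood test). Mmp9 also stands on the neutrophil list, of which the granule gene S100a8 stayed at or below 0.617 CPM as a group mean and Cxcr2 at or below 1.72 CPM. Of 6 tested members, Mmp9 and the granulocyte colony-stimulating factor receptor Csf3r (1.45 ± 0.24) were called higher and the activating receptor Trem1 lower (-1.70 ± 0.46, lost without the block). Csf3r averaged 10.6 CPM in WT and 70.5 CPM in KO CD11c+ cells and 39.7 against 97.2 CPM in CD206+ cells. The summed level of the list was 32.4 to 57.1 CPM in WT and 276.5 to 523 CPM in KO CD11c+ libraries, and 301 to 705 against 684.5 to 1219 CPM in CD206+ libraries. Mmp9 and Csf3r are themselves part of these sums, and the part of the list in the result was not tested.

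Dnase1l3, a secreted nuclease, rose in CD11c+ cells by 2.09 and had an interaction of 2.48 ± 0.27. Ninj1, which breaks the plasma membrane in lytic cell death, rose in CD11c+ cells and was not called in CD206+ cells: 76.3 to 131 CPM in WT and 297 to 437 CPM in KO, with 510.1 to 869.7 and 658 to 959.9 CPM in CD206+ cells (1.55 ± 0.14, adjusted p = 4.14e-05 by the edgeR quasi-likelihood test). The prostaglandin F synthase gene Fam213b, whose exons overlap Mmel1 on the other strand, had 1.75 ± 0.15. Sesn1, a stress-responsive inhibitor of mTORC1, rose in CD11c+ cells (1.05) and fell in CD206+ cells (-0.55), an interaction of 1.61 ± 0.15. Opposite directions of this kind were also measured for the transferrin receptor Tfrc, with 22.3, 50.1, 26.4 and 20.9 CPM in WT and 64.7, 52.7, 60.3 and 67.5 CPM in KO CD11c+ libraries. In CD206+ libraries Tfrc held 354, 396, 453 and 366 CPM in WT and 163, 194, 159.7 and 165 CPM in KO. The KO libraries lay above every WT library in CD11c+ cells and below every WT library in CD206+ cells, with an interaction of 2.31 ± 0.23 (SE; adjusted p = 4.98e-05 by the edgeR quasi-likelihood test). Fxyd2, a regulatory subunit of the sodium pump, held 5.08 to 9.28 and 14 to 32.7 CPM in WT and KO CD11c+ cells against 115 to 170.2 and 74 to 109 CPM in CD206+ cells (2.34 ± 0.19, adjusted p = 2.96e-05 by the edgeR quasi-likelihood test). The growth factor Igf1 (1.63 ± 0.17), the acyltransferase Mboat1 (2.29 ± 0.28), the leukotriene-processing enzyme Ggt5 (1.57 ± 0.23) and the butyrophilin-like Btnl2 (2.94 ± 0.40, under 2 CPM in every CD11c+ library) also rose in CD11c+ and fell in CD206+ cells.

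A further set of higher genes owed its value to a deeper fall in CD206+ cells. Cd209a, the lectin DC-SIGN, held 309.7, 445, 204 and 212 CPM in WT and 43.7, 117, 96.8 and 50.6 CPM in KO CD11c+ libraries, and 285, 233, 272 and 225 against 10.1, 17.7, 7.92 and 3.52 CPM in CD206+ libraries. The WT groups overlapped between the populations, whereas each KO CD11c+ library was above each KO CD206+ library (2.88 ± 0.34, adjusted p = 0.000146 by the edgeR quasi-likelihood test). Ear2, an eosinophil-associated ribonuclease that macrophages also make, fell in both (log2 of -2.23 in CD11c+ and -4.78 in CD206+ cells; interaction 2.55 ± 0.27; KO CD206+ libraries at 0.181 to 1.48 CPM). Its relative Rnase2a had the most positive interaction of the named genes, 6.60 ± 1.14, from 7.28 to 115 CPM in WT to 0 to 0.241 CPM in KO CD206+ cells, a value that rests on few reads in KO and lost its call under limma voom. Reads of related genes can be split between them, and how far this applies to Ear2 and Rnase2a was not tested. Mucl1, a mucin-like protein, had 4.27 ± 0.58 with at most 13.8 CPM as a group mean. Rnase4 (2.45 ± 0.25) and Ang (2.71 ± 0.55), ribonuclease genes that share exons and cannot be separated by these counts, fell in CD206+ cells (log2 of -2.0 and -1.68). Of the 3 tested eosinophil markers 0 were called higher by edgeR or DESeq2 (0 positive at an unadjusted p under 0.05) and 1 lower, Siglecf, whose interaction was of the opposite sign to that of Ear2. Ccr3 and Il5ra averaged at most 1.73 CPM in CD206+ and at most 0.878 CPM in CD11c+ cells, and Ear6 was at 0 in all 16 libraries. Cd209a also stands on the dendritic cell list, of which it alone was called higher and Irf4 and Fscn1 lower of 19 tested (1 and 0 without the block). That list summed to 888 to 1281 CPM in WT and 351 to 626 CPM in KO CD11c+ libraries, and to 521 to 575 against 262 to 327 CPM in CD206+ libraries. The monocyte list had 1 of 16 called higher, Hp, and 4 lower, Chil3, Itgal, Nr4a1 and Spn (1 and 2 without the block). Its summed level was 13717 to 23024 CPM in WT and 8909 to 11604 CPM in KO CD11c+ libraries, and 7672 to 10005 against 5823 to 6689 CPM in CD206+ libraries. The part of these cell types in the results was not tested.

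Genes of resident and alternatively activated macrophages were called higher in 16 of 39 cases and lower in 3 (41% and 7.69%; median 0.80). Without the block the counts were 11 and 0, and without any single pair 14 to 22 and 2 to 4. In KO against WT, 18 of them fell and 3 rose in CD206+ cells, while 12 rose and 10 fell in CD11c+ cells. Of all 13062 tested genes, 1492 fell and 1554 rose in CD206+ cells, and 1466 rose and 1905 fell in CD11c+ cells. Timd4, a phosphatidylserine receptor of resident macrophages, stood at 0.274 to 2.55 CPM in WT and 8.07 to 20.9 CPM in KO CD11c+ libraries (2.60 ± 0.37). The folate receptor Folr2 (1.86 ± 0.28) held 11.8 to 40.2 and 53.8 to 111 CPM there. Stab1 (1.57 ± 0.26), the ficolin Fcna (1.66), the chemokine Ccl24 (1.62 ± 0.28), Gas6 (1.52), Cbr2 (1.47) and Retnla (0.94) were higher as well. Lower were Arg1 (-1.74 ± 0.37), Chil3 (-2.37 ± 0.49, with wide spread in each group) and Cd163 (-0.50). Arg1, Chil3 and Ccl24 lost their calls without the block. Lyve1 was not called (0.91 ± 0.51). Adipocyte markers had 4 of 19 called higher and 0 lower (Adipoq 1.34, Cfd 1.36, Car3 0.88 and Scd1 0.76; 0 of 19 without the block). Their summed level was 166 to 379 CPM in WT and 120 to 175 CPM in KO CD11c+ libraries, and 647 to 1021 against 377 to 619 CPM in CD206+ libraries. The median KO minus WT of these 19 markers was 0.09 in CD11c+ and -0.56 in CD206+ cells (log2). Their part in the result was not tested.

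Acute-phase and complement genes had the highest share called higher of the pathway lists: 12 of 19, with 1 lower (63.2% and 5.26%; median 1.36; 9 and 0 without the block). Haptoglobin (Hp) held 1.96, 2.51, 1.11 and 2.36 CPM in WT and 88, 38.5, 71.1 and 80.6 CPM in KO CD11c+ libraries. In CD206+ libraries it held 7.82, 5.32, 5.93 and 8.3 CPM in WT and 35.9, 20.04, 30.4 and 94.8 CPM in KO. It rose in both populations without overlap, by 5.13 ± 0.46 and 2.73 ± 0.39, and the order of the populations turned between the genotypes, with more Hp in CD206+ cells in all 4 WT pairs and more in CD11c+ cells in 3 of 4 KO pairs (interaction 2.59 ± 0.36, adjusted p = 0.000503 by the edgeR quasi-likelihood test). The serum amyloid Saa3 rose from 0.281 to 245 CPM in CD11c+ and from 4.64 to 613 CPM in CD206+ cells (2.47 ± 0.59). Its WT CD11c+ libraries held 0.0529 to 0.87 CPM, and the call was lost without the block, under limma voom and without WT pair 4, with values of 1.66 to 4.24 over the 15 alternative fits. Complement C4b rose in CD11c+ cells (21.8 to 99.1 CPM; 2.22 ± 0.39, lost without the block), and the C1q chains C1qa (1.31 ± 0.17), C1qb (0.91 ± 0.14) and C1qc (1.28 ± 0.17) and factor B (Cfb, 1.46) were higher. Properdin (Cfp, -0.74) was the lower one. Saa2 was at 0 in all 16 libraries.

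Interferon response genes rose with A20 loss in both populations, 48 of 54 in CD11c+ and 50 in CD206+ cells. Of all 13062 tested genes, 1466 rose in CD11c+ and 1554 in CD206+ cells. Among the 54, the interaction called 24 higher and 6 lower (44.4% and 11.1%, median 0.49). Without the block 8 and 1 passed. The largest values were those of Ly6e (2.13 ± 0.21; 79.4 to 936 CPM in CD11c+ and 856 to 2360.3 CPM in CD206+ cells), Oas1g (1.97 ± 0.22), Ifi204 (1.84 ± 0.18), Mnda (1.76 ± 0.20), Oas2 (1.71 ± 0.28) and Rtp4. Rtp4, a chaperone of cell surface receptors, held 6.88, 12.5, 8.62 and 8.73 CPM in WT and 61.5, 55, 81 and 82.2 CPM in KO CD11c+ libraries and 39.1, 64.2, 37 and 53.9 against 90.6, 108, 128 and 156 CPM in CD206+ libraries (1.61 ± 0.14, adjusted p = 4.14e-05 by the edgeR quasi-likelihood test). KO libraries lay above WT libraries in both populations, by 2.93 and 1.32. The lower 6 were Cxcl10, Trim25 (-0.83), Zbp1 (-0.68), Irf5 (-0.49), Irf1 (-0.48) and Ifi35 (-0.46). Isg15 (0.16) and Mx1 (0.16) were not called. The interferon-inducible GTPases rose in all 17 cases in both populations (medians of 2.40 and 2.72) and the interaction called 2 higher and 4 lower, among them Gbp2b (-1.17 ± 0.23) and Irgm2 (0.77 ± 0.16). Without the block 0 higher and 1 lower passed, and Gbp2b and Irgm2 lost their calls there and under limma voom. Of 21 genes of MHC class I presentation, 19 rose in each population, and 3 were lower in the interaction: Psmb8 (-0.55 ± 0.13), H2-T23 (-0.55 ± 0.15) and Psme1 (-0.45 ± 0.11). Without the block 2 were lower, and without any single pair 0 to 3. Gvin1 and H2-Q6 were at 0 in all 16 libraries.

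The promoters of 4 genes are shown for reading beside these values. They were chosen after the values were seen and because they hold a match: the genes called higher with the block that had the largest interaction and an interferon-stimulated response element, and those called lower with an NF-kB match, among the named genes. Saa3 and Cxcl10 lost their calls without the block. Sequences are from RefSeq (GRCm38.p6), the 250 bases before the start site, 5′ to 3′ along the gene, with matches to any of the motifs searched in capitals.
Oas1g (chr5:120887614-120887863, minus strand): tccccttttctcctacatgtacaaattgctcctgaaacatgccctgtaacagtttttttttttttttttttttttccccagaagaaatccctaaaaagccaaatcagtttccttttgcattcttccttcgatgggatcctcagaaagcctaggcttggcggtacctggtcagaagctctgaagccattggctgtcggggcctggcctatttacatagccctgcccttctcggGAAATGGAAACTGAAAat
Saa3 (chr7:46715677-46715926, minus strand): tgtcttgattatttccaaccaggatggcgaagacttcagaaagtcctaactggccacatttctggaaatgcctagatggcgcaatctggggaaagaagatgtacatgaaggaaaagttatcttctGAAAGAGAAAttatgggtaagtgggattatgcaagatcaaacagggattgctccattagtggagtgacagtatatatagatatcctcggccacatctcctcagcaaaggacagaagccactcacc
Tnip3 (chr6:65590148-65590397, plus strand): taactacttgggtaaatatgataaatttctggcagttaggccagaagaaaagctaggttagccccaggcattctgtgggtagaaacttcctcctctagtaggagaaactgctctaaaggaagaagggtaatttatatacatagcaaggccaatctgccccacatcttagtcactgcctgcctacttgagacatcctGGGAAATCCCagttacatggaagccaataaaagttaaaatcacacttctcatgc
Cxcl10 (chr5:92348890-92349139, minus strand): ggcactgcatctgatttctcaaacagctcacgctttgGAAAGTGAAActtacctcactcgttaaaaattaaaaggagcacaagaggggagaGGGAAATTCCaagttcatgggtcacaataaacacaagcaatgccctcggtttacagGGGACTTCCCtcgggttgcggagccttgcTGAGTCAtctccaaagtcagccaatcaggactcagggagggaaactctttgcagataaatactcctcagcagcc
Oas1g holds 2 overlapping response elements and Saa3 holds 1. Tnip3 holds 1 NF-kB match, and Cxcl10 holds 2 together with 1 response element and 1 AP-1 site, none of which overlap. The motifs were the NF-kB consensus, the response element TTTCNNTTTC and the AP-1 site TGANTCA, searched on both strands in the 7949 of 13062 tested genes with a single promoter entry. NF-kB matches were found in 4.54% of all these promoters, in 5.61% of 392 from called higher genes and in 6.16% of 471 from called lower genes. For the response element the shares were 2.84%, 4.59% and 4.25%, and for the AP-1 site 4.13%, 5.1% and 4.25%. No test was made of these shares. A match is a string of letters and not a measured site.

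**Figure D3:**
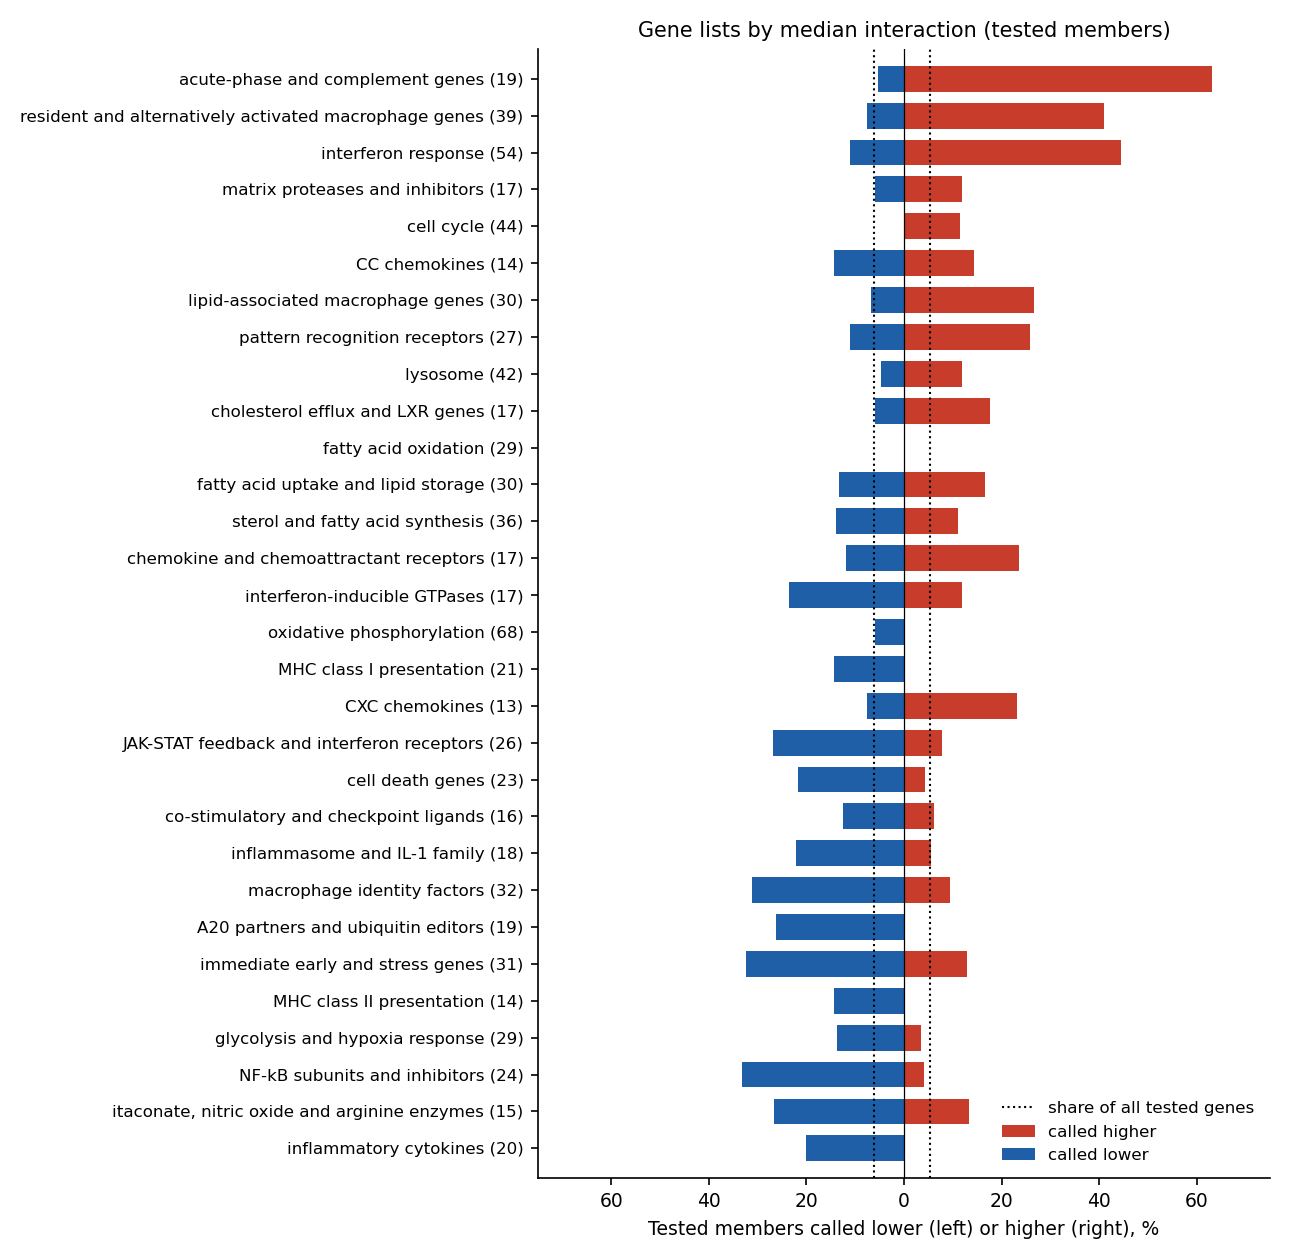
Share of the tested members of each list that the interaction called lower (bars to the left) or higher (bars to the right), in percent, for the 30 lists of pathways, macrophage states and handling, ordered by median interaction, with the number tested in brackets. Dotted lines mark the shares over all tested genes, 5.23% higher and 6.1% lower; acute-phase, resident macrophage and interferon response genes reach furthest to the right, NF-kB and immediate early genes furthest to the left.

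Receptors that sense microbes were called higher in 7 of 27 cases and lower in 3 (7 and 1 without the block; median 0.12). The lectin Clec4n (Dectin-2) rose in both populations, by 3.03 in CD11c+ and 1.32 in CD206+ cells (1.71 ± 0.16). Tlr7 (1.44 ± 0.20), Tlr3 (1.09 ± 0.18) and Nod1 (1.28 ± 0.20), sensors of RNA and of peptidoglycan, rose in CD11c+ cells (1.53, 1.68 and 2.07) and stood at 0.08, 0.60 and 0.81 in CD206+ cells, where Tlr7 was not called. The fractalkine receptor Cx3cr1 (1.60 ± 0.17) and the complement receptors C5ar1 (1.02 ± 0.17) and C3ar1 (0.88 ± 0.15) were higher, whereas the chemerin-binding receptor Ccrl2 was lower (-0.87 ± 0.18).

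Of 29 fatty acid oxidation genes 0 were called by the edgeR quasi-likelihood test, 1 by DESeq2 and 2 under upper-quartile scaling, all of them higher, with a median of 0.03. At an unadjusted p under 0.05 there were 4 positive and 1 negative. The smallest p belonged to Cpt2 (0.61 ± 0.19, adjusted p = 0.0607 by the edgeR quasi-likelihood test) and Hadh (0.35 ± 0.11, adjusted p = 0.0656). Of 68 oxidative phosphorylation genes 4 were lower (5.88%, close to the 6.1% of all genes; 2 without the block) and 0 higher by edgeR or DESeq2 (1 positive at an unadjusted p under 0.05). Fatty acid uptake and storage gave 5 higher and 4 lower of 30, with the scavenger receptor Msr1 (1.52 ± 0.15) and the triglyceride synthase Dgat2 (1.10 ± 0.25) on the higher and lipoprotein lipase Lpl (-1.02 ± 0.15) on the lower side. Without the block 1 higher and 2 lower passed, and Dgat2 lost its call there and under limma voom. Glycolysis and hypoxia genes gave 4 lower and 1 higher of 29. The transporters for glucose, Slc2a1 (-1.01 ± 0.23), and lactate, Slc16a3 (-0.99 ± 0.22), rose in CD206+ cells by 1.60 and 0.97 and were not called in CD11c+ cells. Without the block 0 of the list were lower and 1 higher, so both transporters lost their interaction calls. The arginine transporter Slc7a2 was higher (2.39 ± 0.38), as was nitric oxide synthase Nos2 (1.34 ± 0.32, lost without the block and without WT pair 1 or 3), which rose in both populations. Lipid-associated macrophage genes were higher in 8 of 30 and lower in 2 (5 and 1 without the block), with Emp1 (1.59 ± 0.18), Dcstamp (1.41 ± 0.21), Cd63 (1.06 ± 0.14) and Fabp5 (1.05 ± 0.21). The cholesterol exporter Abca1 rose in CD11c+ cells by 1.28 (1.14 ± 0.16). Cell cycle genes were higher in 5 of 44 (2 without the block, and 2 to 8 without any single pair) and lower in 0 by edgeR or DESeq2 (0 negative at an unadjusted p under 0.05), led by the kinesin Kif23 (1.36 ± 0.15), which fell in CD206+ cells (-1.27).

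Seen the other way round, the interaction is the change in the gap between the populations. CD11c+ against CD206+ cells called 8760 genes in WT (67.1%) and 7283 in KO (55.8%). Of the 683 higher genes, 597 were called higher in CD206+ than in CD11c+ cells of WT mice (87.4%), and the median gap over the 683 was -1.46 in WT and -0.50 in KO. Of the 797 lower genes, 694 were called higher in CD11c+ cells of WT mice (87.1%), and the median gap over the 797 was 0.85 in WT and 0.24 in KO. The gap kept its sign and was smaller in KO for 1038 of the 1480 called genes (70.1%), larger for 99 (6.69%) and of the other sign for 343 (23.2%). Over all tested genes the shares were 59.4%, 26.6% and 14%. The WT gap enters both the interaction and this sorting, so these shares are descriptions and not tests. Over all genes the SD of the gap was 1.255 in WT and 1.063 in KO on the log2 scale.

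**Figure D4:**
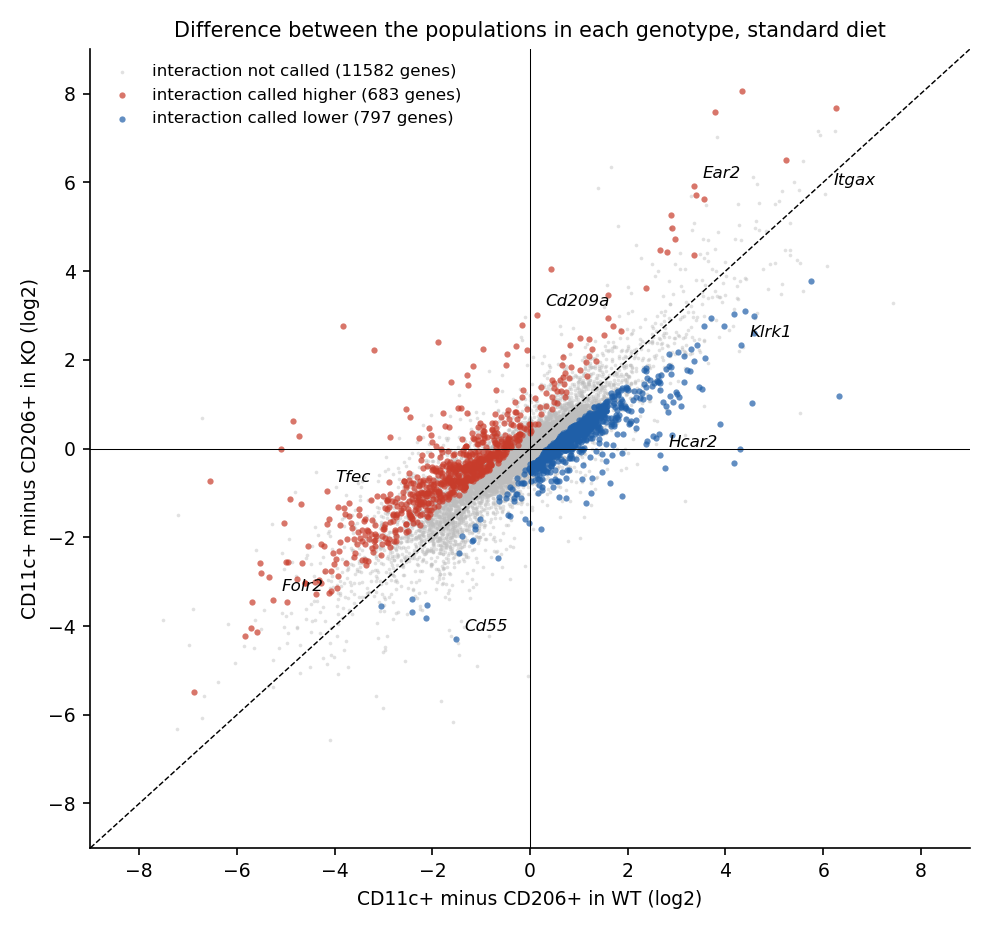
Each point is 1 of the 13062 tested genes, with the CD11c+ minus CD206+ log2 difference in WT on the horizontal and in KO on the vertical axis, standard diet; the dashed line marks equal gaps. Most called genes lie between the dashed line and the horizontal axis (1038 of 1480 with a smaller gap of the same sign in KO), while Ear2 and Cd55 lie outside it with a wider gap in KO.

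On HFD the same interaction was made from the other 16 libraries, so the diets share none. In a fit of all 32 libraries with 16 pairs, the interaction differed between SD and HFD for 2077 of 13453 genes (15.4%), 1063 more positive and 1014 more negative on SD. Without the block 1295 passed. The sort gene Itgax was among those that differed. Its interaction was -0.25 ± 0.43 on SD and 2.60 ± 0.40 on HFD (difference -2.85 ± 0.59, adjusted p = 0.00301 by the edgeR quasi-likelihood test). In CD206+ cells it averaged 34.4 CPM in WT and 3.41 CPM in KO on HFD, and 3.63 and 4.54 CPM on SD. The part of the sort in the diet differences was not tested. Of the 1480 genes called on SD, 921 differed between the diets, 104 were called on HFD with the same sign and 208 with the opposite sign. Over all 13453 genes, 1209 were called on HFD. The 1480 genes had a median absolute interaction of 0.73 on SD and 0.30 on HFD. They were chosen on SD values that also enter the difference between the diets. That choice favours the SD value and raises the count of 921.

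Hcar2 stood at 0.41 ± 0.29 on HFD, a difference between the diets of -3.17 ± 0.39 (edgeR quasi-likelihood test on the difference, adjusted p = 3.82e-05), Nr4a2 at -0.19 ± 0.22 (difference -1.99 ± 0.31) and Tfec at -0.02 ± 0.23 (difference 3.28 ± 0.35). Msr1 (1.56 on SD and -1.04 ± 0.17 on HFD), Folr2 (1.91 and -1.98 ± 0.34), Il1b (-1.30 and 1.11 ± 0.26) and Cxcl10 (-1.34 and 1.28 ± 0.22) were called on both diets with opposite signs. Among the genes named for the largest diet differences, the Ras activator Rasgrp3 had 3.90 ± 0.50, the hyaluronan receptor Layn 4.15 ± 0.47 and the dynamin Dnm1 3.87 ± 0.73 on the positive side, and the retinol dehydrogenase Dhrs9 -3.51 ± 0.41 and the lipoxygenase Alox15 -5.42 ± 1.61 on the negative side. The SD interaction of Rasgrp3 kept its call in 8 and that of Dnm1 in 9 of the 15 alternative fits. Dhrs9 was not called on SD (-0.52 ± 0.30) but was on HFD (2.99 ± 0.28). Alox15 was called on neither diet (-2.51 ± 0.95 on SD and 2.91 ± 1.31 on HFD). Other genes were called with the same sign on both diets: Ear2 (2.60 and 1.62 ± 0.33), Mboat1 (2.34 and 1.94 ± 0.31) and Saa3 (2.51 and 2.02 ± 0.61) were among them, and their differences were 0.98 ± 0.49, 0.40 ± 0.43 and 0.49 ± 1.05, none of them called (adjusted p of 0.196, 0.597 and 0.805 by the same test). Values that miss the threshold do not show that the diets act alike.

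**Figure D5:**
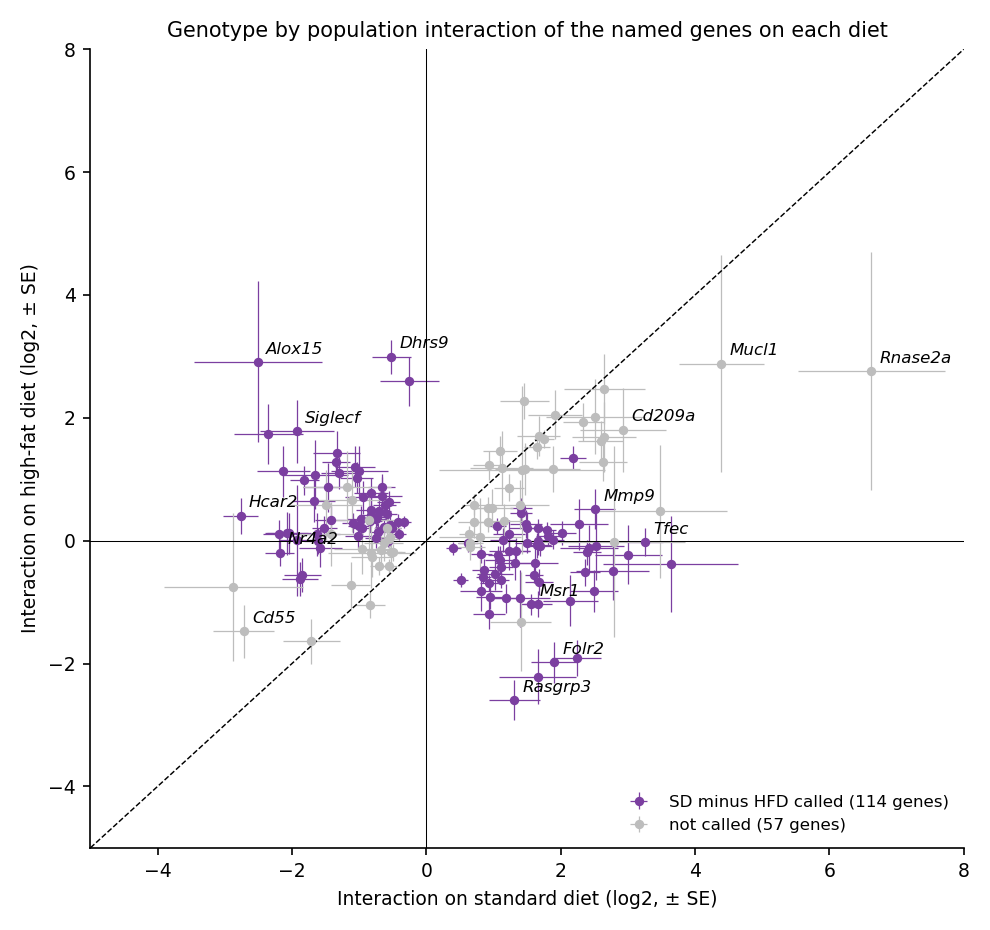
Interaction of the 171 named genes on SD (horizontal axis) and on HFD (vertical axis), log2 with SE bars, from the fit of all 32 libraries; the dashed line marks equal values. The difference between the diets was called for 114 genes (purple), beside 15.4% of all tested genes. The choice of genes raised this share: 155 of the 171 were called on SD, a value that enters the difference, and some were named for the difference itself. On HFD, Nr4a2 (-0.19) and Tfec (-0.02) lie near 0, and Folr2 and Msr1 turn sign.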

How the data were processed

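The values deposited by the authors are raw counts of reads, 1 table of genes per library. Per the submitters' processing notes, the authors used the build mm10 (GRCm38), TopHat2 2.1.0, Trimmomatic 0.35, SAMtools 0.1.18 and FastQC 0.11.4. Not given in the sources used here are the read counter, its strand setting, the annotation and the library kit, so genes that overlap on either strand cannot be separated. Of 24421 genes, those with enough counts (edgeR filterByExpr, minimum count 10) were tested. The 5 rows that name no gene were left out of library sizes; reads without a feature were 5.16% to 11.1% of a library and ambiguous reads 0.992% to 1.48%. Gene totals were 17619638 to 23832924 reads. Replicates differed by 13.5 to 63.8 times the counting variance, as a mean over genes to which abundant genes add most. No 2 libraries of a group agreed within counting noise by this measure. Whether spread or counting error limits a given gene was not tested.

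The interaction was fitted with edgeR 4.0.16 (R 4.3.3), TMM scaling and the quasi-likelihood test on the 16 SD libraries, with 8 pair blocks and 1 population difference per genotype; KO against WT used the 4 group means without a block, and SD minus HFD all 32 libraries with 16 blocks. Standard errors are the log2 value divided by the root of F, and adjusted p-values (Benjamini-Hochberg, threshold 0.05) run over all genes tested. The pairing comes from the sample names and was checked on the libraries: deviations from the group means of same-numbered CD11c+ and CD206+ libraries correlated at 0.146 to 0.332 in all 8 pairs, and those of other numbers at -0.185 to 0.084. The computation was tested on simulated counts.

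The comparison, the 44 gene lists and the naming rule were chosen with earlier results of these data known. Named were Tnfaip3, Lyz2, Itgax and Mrc1; among called genes of at least 10 CPM in a group and with no overlap of KO and WT pairs, the 12 most positive and 12 most negative; the 5 smallest p per direction; the 6 of each orientation with opposite calls in the populations; up to 4 called members per list, or the 2 of smallest p; and the 5 largest SD minus HFD differences per direction. Gene-model symbols (34 of those called) were not named. Other list members were named after their values were seen, to complete a count. Alternatives were no block, limma 3.58.1 voom with a random pair effect, RLE and upper-quartile scaling, no filter, DESeq2 1.42.0, a 2-fold minimum and leaving out each pair. Of the listed symbols, 6 were not found, and results for some genes are not reported here. The HFD libraries were used only for the diet comparison.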

Additional observations from a re-analysis of the deposited data

Results flagged for a closer look

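The interaction itself is a difference between populations under the same contrast, called for 1480 genes on SD, and it differed between the diets for 2077 genes.

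Among 41 genes named by size, p, opposite direction or as controls, each of the 164 groups of 4 libraries was searched for a library far from the other 3. A library apart was found in 13 groups, and chance alone gives about 1 in 20. WT CD11c+ library 4 was apart for Klra2 (16.75 CPM, low), Slc2a6 (272.1 CPM, high), Slc13a3 (126.7 CPM, high) and Prr5l (129.0 CPM, high), WT CD11c+ library 2 for Rnase4 (31.21 CPM, high) and Fxyd2 (9.277 CPM, high), and WT CD11c+ library 3 for Mrc1 (396.3 CPM, low). In WT CD206+ cells library 4 was apart for Dnase1l3 (24.85 CPM, low) and Mmp9 (663.1 CPM, high). In KO the libraries apart were CD11c+ library 4 for Itgal (147.3 CPM, high), CD11c+ library 1 for Fxyd2 (32.68 CPM, high), CD206+ library 2 for Tfrc (194.1 CPM, high) and CD206+ library 4 for Mboat1 (5.65 CPM, high). All of these genes except Mrc1 kept their interaction call when any single pair was left out.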

How the results depend on the processing

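None of the 155 named called genes turned its direction in the 15 alternative fits made for them, which leave out the 2-fold minimum. The called interaction count was 1480, 683 higher and 797 lower. Without the replicate block it was 760 (382 and 378), and in a fit of all 32 libraries without the block 884, 333 of them lower. SD minus HFD gave 1295 without the block. Upper-quartile scaling left 467 lower (894 higher), and RLE scaling gave 738 and 650. A 2-fold minimum left 473, 333 higher and 140 lower. DESeq2 called 1604, limma voom with a random pair effect 1500, and the fit without a filter 1581. Leaving out 1 pair at a time gave 908 to 1407 called, 459 to 696 higher and 358 to 768 lower; the low counts of lower genes came without KO pair 3 (358), WT pair 3 (499) and WT pair 1 (517). KO against WT gave 2678 to 3426 in CD11c+ and 2416 to 2885 in CD206+ cells with 1 library left out, and SD minus HFD 1677 to 2243 without each pair, an alternative chosen after seeing the data. Of the 155 named called genes, 78 kept their call in all 15 fits, 56 lost it without the block, 43 in at least 1 left-out pair and 3 in DESeq2. The cause of these changes was not tested beyond the smaller number of samples that leaving out a pair brings. With 4 pairs per genotype, small interactions are not detectable, and genes under about 1 CPM in a group carry the widest errors.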

Other observations

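Genes that regulate cell death had 5 of 23 members called lower and 1 higher. The pro-survival Bcl2 relatives Bcl2a1a (-1.73 ± 0.28), Bcl2a1d (-1.09), Bcl2a1b (-0.61) and Mcl1 (-0.51) were lower together with Birc3, and the first 3 are near-identical copies whose reads can be split. Bcl2a1a stood at -0.14 in CD11c+ and 1.61 in CD206+ cells (KO minus WT, log2). The death receptor Fas was higher (1.18 ± 0.19), with 2.57 in CD11c+ and 1.42 in CD206+ cells. On the inflammasome and IL-1 list 4 of 18 were lower, among them the adaptor Pycard (-0.58), and 1 was higher, Il1f9 (1.44 ± 0.25). The lower count was 1 without the block or under upper-quartile scaling, 2 under RLE scaling, 3 in DESeq2 and 1 to 3 without any single pair.

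Of 36 sterol and fatty acid synthesis genes, 4 were higher, led by the desaturase Fads2 (2.1) and the malic enzyme Me1 (1.27), and 5 lower, among them the sterol regulator Srebf2 (-0.67); without the block 1 passed in each direction. Cholesterol-25-hydroxylase Ch25h (1.41 ± 0.39) and the sterol hydroxylase Cyp27a1 (0.90) were higher and the phospholipid transfer protein Pltp (-0.60) lower. All 3, and Me1, lost their calls without the block, and Ch25h kept its call in 6 of the 15 alternative fits. Of 42 lysosomal genes 5 were higher, with the cathepsins Ctsb (0.80) and Ctsl (0.80), and 2 lower. Of 14 genes of MHC class II presentation 2 were lower, H2-DMa (-0.67) and H2-Ab1 (-0.59 ± 0.14), and 0 without the block. Stromal markers had 0 of 20 called by the interaction in edgeR or DESeq2 and 0 at an unadjusted p under 0.05. KO against WT called 7 of the 20 lower in CD11c+ and 6 lower in CD206+ cells, and 0 higher in either. Their summed level was 9139 to 17955 CPM in WT and 6190 to 8055 CPM in KO CD11c+ libraries. In CD206+ libraries it was 1686 to 2743 CPM in WT and 1148 to 2559 CPM in KO. These sums follow the most abundant members. Over the 20 markers the median CD11c+ minus CD206+ difference was of the other sign, -1.62 in WT and -1.68 in KO (log2). The part of stromal cells in the results was not tested.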
